A study of Mus musculus with 13 samples.

Results

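The 10 genes described here, of 32544 gene symbols counted in mouse lung, carry TGF-beta and activin signalling and were taken by symbol. They are the TGF-beta ligands Tgfb1, Tgfb2 and Tgfb3, the receptors Tgfbr1, Tgfbr2 and Tgfbr3, the feedback genes Smad7 and Skil, the activin subunit gene Inhba and the stress hormone gene Gdf15. RNA came from whole lungs of male WT mice of strain C57BL/6J, bought when 7 weeks old. After 5 days at 21% oxygen (Normoxia, 7 libraries) or at 80% oxygen (Hyperoxia, 6 libraries), the lungs were perfused and frozen. Both groups had the WT genotype and differed, as far as the labels say, in oxygen alone. Quant-seq sequences the 3′ ends of messenger RNA, and the values below are CPM, counts scaled to a common library total with the TMM correction for the composition of each library. Nothing in the labels says that the libraries of a group came from different animals, so the p-values measure the spread between these libraries.

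TGF-beta ligands are secreted in a latent complex and, once released, join the type II receptor TGFBR2 to the type I receptor TGFBR1, which phosphorylates SMAD2 and SMAD3. Activins, dimers of inhibin beta subunits, use other receptors and reach the same SMAD proteins. In the lung the pathway is known for its roles in alveolar growth, in keeping inflammation in check and, when overactive, in fibrosis. GDF15 is a distant relative of these ligands whose receptor GFRAL sits in the hindbrain, and its gene is a known target of p53 and of the ATF4 and CHOP stress response.

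Promoters were read for Gdf15, which of the 10 genes had the largest difference between the groups, and for the receptor gene Tgfbr2, which lay above every normoxic library in 5 of the 6 hyperoxic ones. Each sequence is the 250 bases before an annotated start in RefSeq on GRCm38.p6, read on the gene's strand. Gdf15 has 2 annotated starts, and only the window of the upstream one is printed, since the other lies within the gene. The Gdf15 window is chr8:70632457-70632706 on the minus strand and the Tgfbr2 window is chr9:116175364-116175613 on the minus strand. Capitals mark CAGAC, the SMAD-binding element, on either strand (GTCTG on the other), and in Tgfbr2 also a match to a single repeat of the p53-binding element.
Gdf15: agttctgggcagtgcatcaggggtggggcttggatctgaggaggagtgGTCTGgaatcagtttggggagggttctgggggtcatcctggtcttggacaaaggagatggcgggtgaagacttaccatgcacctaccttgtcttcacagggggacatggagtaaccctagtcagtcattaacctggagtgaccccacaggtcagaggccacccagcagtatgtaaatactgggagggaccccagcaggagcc
Tgfbr2: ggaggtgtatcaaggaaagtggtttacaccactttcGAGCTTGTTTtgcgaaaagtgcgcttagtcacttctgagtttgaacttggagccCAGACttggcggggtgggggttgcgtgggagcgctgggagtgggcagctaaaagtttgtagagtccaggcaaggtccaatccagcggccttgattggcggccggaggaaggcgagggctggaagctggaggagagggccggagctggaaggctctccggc
In the Gdf15 window GTCTG began 202 bases before the start. The window of the second start, chr8:70632096-70632345, held GTCTG 116 bases and the E-box CACGTG (in 6.021% of promoters) 83 bases before that start. In the Tgfbr2 window CAGAC began 160 bases and the p53 repeat 214 bases before the start. Over the windows of 32851 promoters of the same length, searched on both strands, 42.19% held CAGAC and 7.126% held a p53 repeat. The 2 Gdf15 windows held no match to TGACGTCA (the cAMP response element, in 1.546% of promoters), TGANTCA (AP-1, 6.749%), TGATGNAAT (the composite of ATF4 and CHOP, 0.8158%) or the p53 repeat. A match is a description of these letters and not a site of binding. The table matched 6 of the 10 genes, and Tgfb3, Tgfbr3, Smad7 and Skil had no entry.

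Total counts ran from 1607111 to 3387736 in normoxic and from 2029006 to 4540288 in hyperoxic libraries, so that 3 counts, taken as the floor, equal between 0.656 and 1.84 CPM. Hyperoxia 1 stood apart: its log2 CPM correlated with the other libraries at 0.721 to 0.833 over the genes tested, against 0.854 to 0.967 among the other 12. It also had the fewest genes with a count, 14170 against 15476 to 16595 in the other 12, and the part of this in its low values was not tested. The fold changes of the 10 genes and the counts of the lists were therefore also computed without it. The library names in the labels begin with the letters B to M (5 normoxic, 3 hyperoxic) or O to S (2 normoxic, 3 hyperoxic), and what the letters stand for is not given. The lung's own marker genes were present, and no gene of the marker lists was at 0 in every library. The 6 markers of alveolar type 2 cells summed to 12382 to 23028 CPM in Normoxia and to 3181 to 6846 CPM in Hyperoxia, with 5 of 6 lower. The 4 airway markers summed to 14458 to 53111 CPM and to 184 to 10041 CPM, with 2 of 4 lower, and the lowest value was that of Hyperoxia 1. The 6 endothelial markers summed to 2251 to 4582 CPM and to 683 to 4356 CPM, with 2 of 6 lower, again lowest in Hyperoxia 1. For fibroblasts the sums were 1295 to 2079 and 1035 to 1413 CPM, with 1 of 5 tested markers higher and 2 lower, and for monocytes and macrophages they were 84.8 to 115 and 55.8 to 79.9 CPM, with 2 of 5 lower. Markers of alveolar type 1 cells summed higher, to 2051 to 2455 CPM and to 3057 to 4128 CPM (1 of 5 higher, 1 lower), of which Akap5 alone went from a mean of 1194 to 2734 CPM while Rtkn2 was the 1 lower. The sum was also higher for smooth muscle and pericytes, at 158 to 203 CPM and 222 to 347 CPM, where Des (mean 90.6 and 176 CPM) was the 1 of 4 markers higher. The lists of alveolar macrophages (2 lower), neutrophils (0), platelets (1 lower), lymphocytes (2 lower), mesothelium (1 lower) and cardiac muscle (1 lower) had 0 markers higher, and no liver marker passed the count filter. Among all genes tested 11.8% were higher and 10.8% lower. Without Hyperoxia 1 (15.2% and 13.3%), 1 alveolar macrophage and 1 endothelial marker were higher, and 3 airway and 2 mesothelial markers were lower. The alveolar macrophage sum was 20.4 CPM in Hyperoxia 1 and 254 to 502 CPM in the other hyperoxic libraries, against 156 to 284 CPM in Normoxia. In whole lung, fewer cells of a type and less RNA per cell cannot be told apart, and the part of these shifts in the results below was not tested.

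Hyperoxia left most of the core genes within the spread between libraries. Of the 10 genes, 8 passed the count filter and were tested by edgeR with all others. Tgfb3 and Tgfbr3 were lower in Hyperoxia, 0 were higher and 6 did not pass the adjusted p of 0.05. These 2 of 8 are 25%, near the 22.6% called among all 12496 genes tested (11.8% higher and 10.8% lower). At an unadjusted p of 0.05 the count of higher genes was also 0, and DESeq2, limma-voom and limma on log values each called 0 higher. In 0 of the 10 genes were the groups free of overlap, while among all genes tested 5.6% were higher and 5.23% lower with no overlap. Gdf15 and Inhba did not pass the filter, which asks for about 10 counts, scaled for depth, in at least 6 libraries. Gdf15 had 742 counts in all but was high in only 5 libraries, and Inhba had 30 counts in all. Both were compared by an exact permutation test of the mean log2 CPM. Without Hyperoxia 1, of the same 8 genes Tgfbr2 and Skil were higher and Tgfb3 and Tgfbr3 lower, against 28.5% called among all genes (15.2% higher and 13.3% lower). Gdf15 also passed the filter there, but only through the hyperoxic libraries in which it is high, and is not counted. The plot of CPM by library shows where that library lies for each gene.

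**Figure D1:**
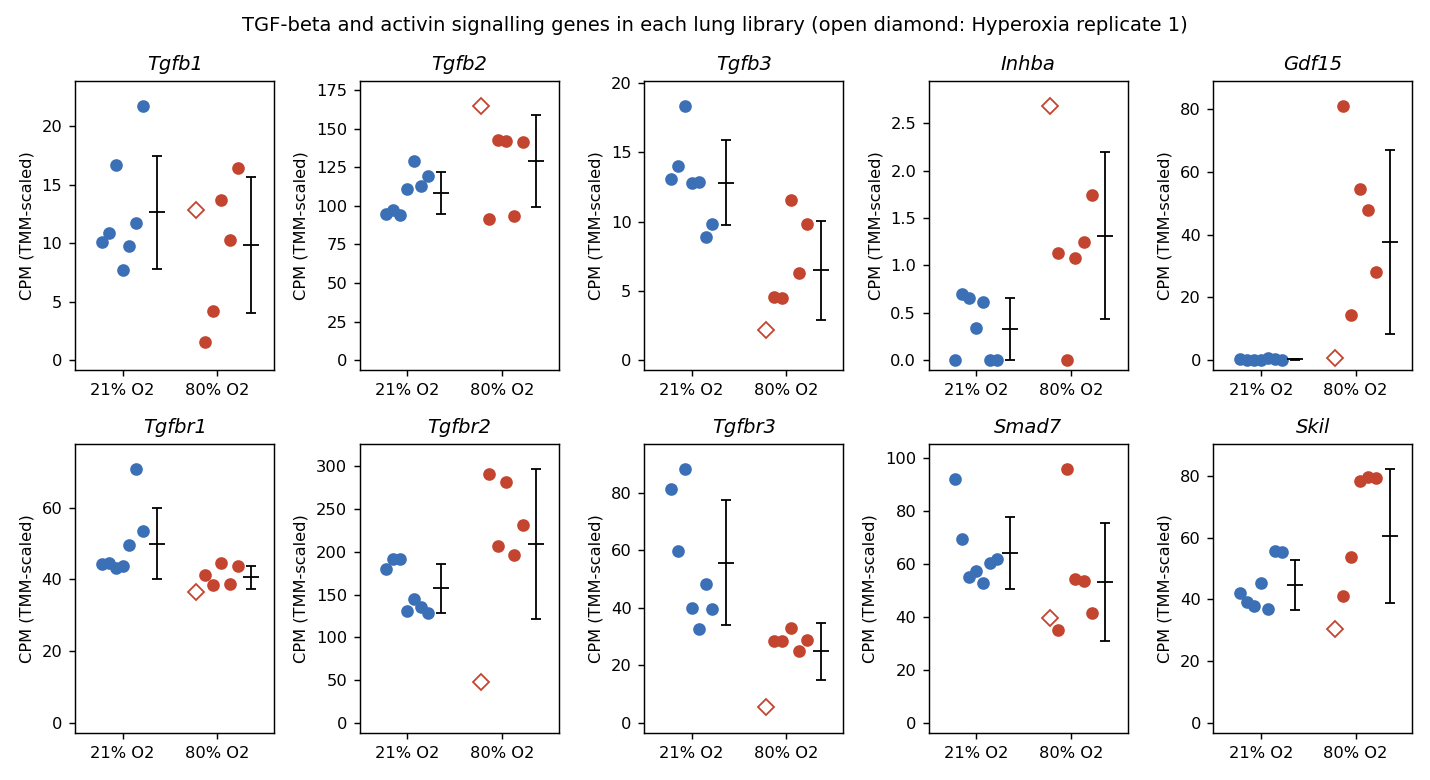
CPM of the 10 genes in each library at 21% oxygen (7 points) and 80% oxygen (6 points), in order of replicate number, with the mean and SD beside each group and Hyperoxia replicate 1 as an open diamond. Each panel has its own scale; Gdf15 lies between 14.2 and 80.9 CPM in 5 hyperoxic libraries and at 0.536 CPM in Hyperoxia 1.

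Among the TGF-beta ligands, Tgfb3 was the one that fell. TGF-beta 3 acts in palate and lung development and in wound repair. Its lowest, median and highest values were 8.92, 12.9 and 18.3 CPM in Normoxia and 2.14, 5.39 and 11.6 CPM in Hyperoxia. In Hyperoxia 4 of 6 libraries lay below every normoxic one, and the other 2 lay among them. The log2 fold change was −0.93 ± 0.32 (SE) with an adjusted p of 0.0452 in edgeR's quasi-likelihood test, and the exact permutation test gave p = 0.00408. Without Hyperoxia 1 it was −0.76 with an adjusted p of 0.0475. The call was lost without any 1 of 8 libraries (Normoxia 1 to 5 and Hyperoxia 2, 3 and 5), where the fold change was −0.92 to −0.81 and the adjusted p 0.0643 to 0.0940.

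The fall of Tgfb3 was seen in 1 of the 2 letter sets. In the libraries B to M the log2 fold change was −1.84, and in the libraries O to S it was −0.024 with an adjusted p of 0.967 by edgeR. The 2 normoxic libraries of O to S, at 8.92 and 9.81 CPM, were the lowest of their group, and the hyperoxic ones of that set, from 6.25 to 11.6 CPM, were the highest of theirs. A test of the difference between the sets gave an unadjusted p of 0.00228 and an adjusted p of 0.538, and edgeR called 0 of 12496 genes for such a difference. Tgfb3 lies on chr12:86056745-86079041 of GRCm38, minus strand, within a region where Ttll5 runs on the other strand. Whether strand was used in counting is not stated, and Ttll5 differed by −0.20 on the log2 scale with an adjusted p of 0.634.

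Tgfb1 and Tgfb2 did not differ beyond the spread. Tgfb1, the ligand best known for fibrosis and immune control, ranged from 7.74 to 21.7 CPM around a median of 10.8 CPM in Normoxia. In Hyperoxia it ranged from 1.51 to 16.4 CPM around 11.6 CPM, and its log2 fold change was −0.36 ± 0.40 (SE; adjusted p = 0.570, 95% interval −1.22 to 0.50). The 2 lowest hyperoxic values, 1.51 and 4.17 CPM in Hyperoxia 2 and 3, lay below every normoxic one, and the other 4 lay within the normoxic range. The fold change was −0.11 without Hyperoxia 2, −0.18 without Hyperoxia 3 and −0.55 without Hyperoxia 6, and −0.82 in the libraries B to M alone, with no call in any of these. Tgfb2, a ligand needed for heart and lung development, had values of 94.2, 111 and 129 CPM (lowest, median, highest) in Normoxia. Its hyperoxic values were 91.4, 142 and 165 CPM. Here 4 of the 6 hyperoxic libraries lay above every normoxic one and the other 2, Hyperoxia 2 and 5, lay below all of them. The log2 fold change of 0.26 ± 0.16 did not pass the test (adjusted p = 0.270, 95% interval −0.08 to 0.59). It was 0.40 in B to M, 0.11 in O to S and 0.15 under limma on log values, with no call in any of these.

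The co-receptor gene Tgfbr3 showed the clearest fall of the tested core genes. Betaglycan, its product, presents TGF-beta 2 to TGFBR2 and binds inhibin. In Normoxia Tgfbr3 stood at 32.5, 48.2 and 88.3 CPM (lowest, median, highest), and in Hyperoxia at 5.36, 28.4 and 32.8 CPM. In Hyperoxia 5 of 6 libraries lay below every normoxic one, and Hyperoxia 4 exceeded only the lowest, Normoxia 5. The log2 fold change was −1.15 ± 0.32 (SE), with an adjusted p of 0.0173 by edgeR and an exact permutation p of 0.00175. Hyperoxia 1 was far below the other 5, which lay between 25.0 and 32.8 CPM. Without it the fold change was −0.94 ± 0.23 with an adjusted p of 0.00573, and the call held whichever of the 13 libraries was removed. Within the letter sets it was −1.49 in B to M (adjusted p = 0.0921) and −0.61 in O to S (adjusted p = 0.0567), where 8.8% (5.34% higher, 3.47% lower) and 21.3% (11% higher, 10.3% lower) of all genes were called. Tgfbr3 lies on chr5:107106570-107289629 of GRCm38, minus strand. In that annotation 3 genes overlap it on the same strand (Gm43422, Gm43423 and Gm42900) and 1 pseudogene, Gm8145, on the other.

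The type II receptor gene Tgfbr2 depended on Hyperoxia 1. It had 128, 145 and 191 CPM (lowest, median, highest) in Normoxia and 47.7, 219 and 290 CPM in Hyperoxia. Hyperoxia 1 held the 47.7 CPM, below every other library, and the other 5 hyperoxic libraries, from 197 to 290 CPM, lay above every normoxic one. With all libraries the log2 fold change was 0.41 ± 0.29 (SE; adjusted p = 0.334), and without Hyperoxia 1 it was 0.63 ± 0.15 (adjusted p = 0.00415). In the libraries O to S, which do not hold Hyperoxia 1, it was 0.83 with an adjusted p of 0.0130. In B to M it was 0.15 with an adjusted p of 0.854, and the plain difference in mean log2 CPM there was −0.22. That set holds Hyperoxia 1. The promoter printed above belongs to this gene, which spans chr9:116084293-116175360.

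The type I receptor gene Tgfbr1 stood between 43.2 and 70.8 CPM in Normoxia with a median of 44.7 CPM, and between 36.5 and 44.7 CPM in Hyperoxia with a median of 40.0 CPM. In Hyperoxia 4 of 6 libraries lay below every normoxic one, but the distance was small. Its log2 fold change of −0.30 ± 0.15 had an adjusted p of 0.154 in edgeR and an unadjusted exact permutation p of 0.0163. Without Normoxia 6, the highest library, it was −0.18, and by letter set it was −0.17 in B to M and −0.56 in O to S, with no call in any of these. The 3 receptor genes thus had estimates of −0.30, 0.41 and −1.15, of which the last passed the test over all libraries. The plot of fold changes gives these estimates with and without Hyperoxia 1.

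**Figure D2:**
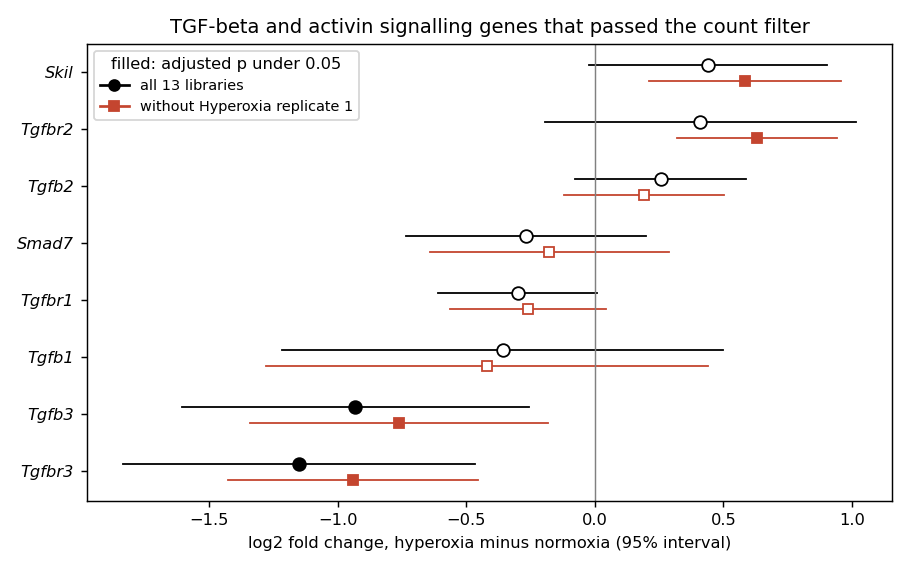
Log2 fold change (Hyperoxia minus Normoxia) with its 95% interval for the 8 genes that passed the count filter, from all 13 libraries (black circles) and without Hyperoxia replicate 1 (red squares); filled symbols have an adjusted p under 0.05. Tgfb3 and Tgfbr3 are filled in both fits, while Tgfbr2 and Skil are filled only without Hyperoxia replicate 1.

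Both feedback genes overlapped between the groups. Smad7 encodes the inhibitory SMAD that is switched on by TGF-beta and blocks TGFBR1. It had 52.7, 60.5 and 92.2 CPM (lowest, median, highest) in Normoxia and 35.1, 47.4 and 95.9 CPM in Hyperoxia. In Hyperoxia 3 libraries were below every normoxic one and 1, Hyperoxia 3, was above all of them, and the log2 fold change was −0.27 ± 0.22 (SE; adjusted p = 0.424). It was −0.49 without Hyperoxia 3 (adjusted p = 0.0517), −0.14 without Hyperoxia 2 and −0.13 without Normoxia 1, and was not called in any of these. Skil encodes SnoN, a repressor of SMAD complexes that is itself a target of the pathway. It had 36.8, 42.2 and 55.7 CPM in Normoxia and 30.6, 66.1 and 79.7 CPM in Hyperoxia. Hyperoxia 4, 5 and 6 stood together at 78.4 to 79.7 CPM, above every normoxic library, while Hyperoxia 1 was the lowest of all. The log2 fold change was 0.44 ± 0.22 (adjusted p = 0.164). Without Hyperoxia 1 it was 0.58 ± 0.18 (adjusted p = 0.0200), and by letter set it was 0.50 in O to S (adjusted p = 0.0369) and 0.10 in B to M (adjusted p = 0.802), all by edgeR.

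Gdf15 rose from near absence to a clear signal in 5 of the 6 hyperoxic libraries. In the 7 normoxic libraries it had 3 counts in all, at 0 to 0.613 CPM, and none of these libraries held more than 1 count. In Hyperoxia 2 to 6 it had 214, 41, 202, 153 and 128 counts, or 80.9, 14.2, 54.4, 47.8 and 28.0 CPM. Hyperoxia 1 held 1 count, or 0.536 CPM, and lay among the normoxic libraries. The pooled ratio of Hyperoxia to Normoxia was 263 (95% exact interval 89.6 to 1278, counting error only), and 291 (99.3 to 1416) without Hyperoxia 1. Mean log2 CPM with a prior count of 2 was higher by 4.74 (exact permutation p = 0.00117, two-sided, 1716 splits). Leaving out any library kept p at 0.00433 or lower. The difference was present in both letter sets, at 3.77 in B to M and 5.74 in O to S on the log2 scale. Gdf15 lies on chr8:70629393-70632456 of GRCm38, and no other gene of that annotation overlaps it.

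Cdkn1a, Atf4 and Ddit3, genes of the p53 and stress responses of which Gdf15 is a known target, were each higher in every hyperoxic library than in any normoxic one, Hyperoxia 1 included. Among all genes tested 5.6% were higher with no overlap. Of 14 known p53 target genes 13 were tested, and 10 were higher and 1, Sesn1 (log2 fold change −1.25), was lower, against 11.8% and 10.8% of all genes tested. The median log2 fold change was 1.30, against −0.030 over all genes. Among the 10 is Eda2r, which passed the filter through its hyperoxic libraries (15.9 to 35.4 CPM, against 0 to 3.03 CPM in Normoxia). Cdkn1a, the p53 target that halts the cell cycle, rose from 31.9 to 64.3 CPM in Normoxia to 1089 to 1728 CPM in Hyperoxia (4.86 ± 0.21, adjusted p = 1.09e-09). Hyperoxia 1 held the highest Cdkn1a value of all libraries, at 1728 CPM, beside its single Gdf15 count. Zmat3 (1.43), Aen (2.84) and Ccng1 (2.22) were also higher. Of 14 genes of the ATF4 and CHOP response 11 were tested, and 10 were higher and 0 lower, against 11.8% and 10.8% of all genes, with a median of 1.91. Atf4, the stress transcription factor, rose by 1.91 ± 0.15 on the log2 scale (adjusted p = 4.26e-07), and Ddit3, which encodes CHOP, by 1.40 ± 0.20 (adjusted p = 0.000181). The serine and folate enzymes Mthfd2 (3.16) and Psat1 (2.76) were higher as well. In Hyperoxia 1 Atf4 stood at 254 CPM and Ddit3 at 57.9 CPM, both within the range of the other hyperoxic libraries. Not every called gene of these lists was high in that library: in Hyperoxia 1, 7 of the 10 higher p53 targets and 7 of the 10 higher ATF4 and CHOP genes lay above every normoxic library. The p53 targets Phlda3 (17.2 CPM), Plk2 (48.8 CPM) and Btg2 (137 CPM) lay within the normoxic range there. Of the stress genes Trib3 (3.22 CPM) lay within it, and Asns and Phgdh (1.07 CPM each) lay below every normoxic library. Those 2 values are under the floor of Hyperoxia 1, 1.61 CPM, and the lowest normoxic values were 2.94 CPM for Asns and 1.84 CPM for Phgdh. These 6 genes were named after their values were seen. The receptor gene Gfral had 1 count in all 13 libraries.

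**Figure D3:**
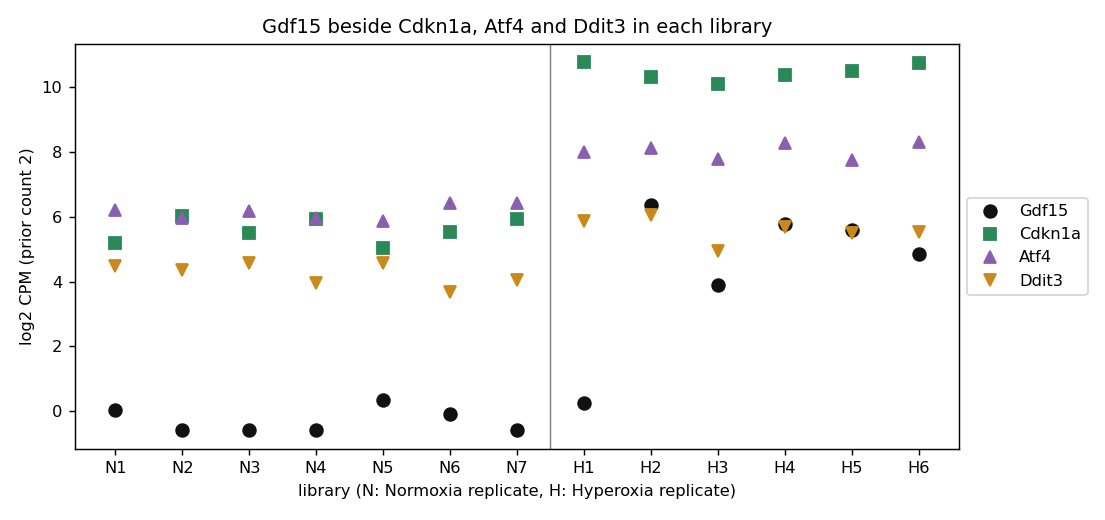
Log2 CPM with a prior count of 2 for Gdf15, Cdkn1a, Atf4 and Ddit3 in each of the 7 normoxic (N) and 6 hyperoxic (H) libraries, 1 symbol per gene and library. Gdf15 in H1 lies with the normoxic libraries, while Cdkn1a, Atf4 and Ddit3 in H1 lie with the hyperoxic ones; other genes of the same responses, such as Asns and Trib3, did not, and levels of different genes are not compared.

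Inhba, whose product forms activin A, was close to the floor everywhere. The normoxic libraries held 0 to 2 counts each and 6 in all, and the hyperoxic ones 0 to 8 counts each and 24 in all. In Hyperoxia 5 of 6 libraries lay above every normoxic one, at 1.08 to 2.68 CPM, and Hyperoxia 3 held 0 counts. The pooled ratio was 4.27 (95% exact interval 1.70 to 12.8, counting error only), and 3.75 (1.44 to 11.5) without Hyperoxia 1. The mean log2 CPM differed by 0.91 (exact permutation p = 0.0367, unadjusted and so not a call). This p rose above 0.05 without any 1 of 8 libraries (Normoxia 1, 6 and 7 and Hyperoxia 1, 2, 4, 5 and 6), where the difference was 0.73 to 0.92 and p 0.0530 to 0.0671. Fitted without a count filter it had an adjusted p of 0.118 in edgeR and 0.0890 in DESeq2.

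Of 14 other genes of the activin side 8 were tested, of which 3 were higher and 1 lower, against 11.8% and 10.8% of all genes tested. Their median log2 fold change was 0.12, against −0.030 over all genes. Fst, which encodes the activin trap follistatin, rose by 2.73 ± 0.53 (adjusted p = 0.00171), from 7.82 ± 3.69 CPM (SD, n = 7) to 50.6 ± 35.8 CPM (n = 6). Hyperoxia 1 held 1.61 CPM of Fst, below every normoxic library, and the other 5 held at least 37.4 CPM. Fstl3, another activin trap, rose by 2.01 ± 0.42 (adjusted p = 0.00265), and there Hyperoxia 1 was the highest library at 216 CPM. Inhbb, which encodes the subunit of activin B, rose by 0.92 ± 0.27 (adjusted p = 0.0203), and the type II receptor gene Acvr2b fell by 1.59 (adjusted p = 0.0263), all in log2 units from edgeR. Acvr2b was low, at 2.23 to 11.6 CPM in Normoxia and 0.347 to 4.15 CPM in Hyperoxia. Hyperoxia 1 and 3 held 3 and 1 counts of it, at or under the floor. Its lowest normoxic values, 2.23 and 2.38 CPM, were those of Normoxia 6 and 7, of the letters O to S, and lay within the hyperoxic range.

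The genes that hold and release latent TGF-beta were mostly within the spread, with 3 of 13 tested higher and 0 lower, against 11.8% and 10.8% of all genes, and a median of 0.023. Fbn1, the microfibril gene that anchors the latent complex, rose by 1.50 ± 0.20 (adjusted p = 8.05e-05), and Thbs1, an activator of latent TGF-beta, by 1.61 ± 0.22 (adjusted p = 0.000101). Lrrc32, which encodes the cell surface anchor GARP, rose by 1.20 ± 0.22 (adjusted p = 0.00105). In these 3 genes, named because they were called, the groups did not overlap, while 5.6% of all genes tested were higher with no overlap. For Thbs1 the margin was small, with a lowest hyperoxic value of 59.7 CPM and a highest normoxic value of 59.5 CPM. In all 3 Hyperoxia 1 lay among the other hyperoxic libraries. Of the co-receptors and decoys 4 of 5 were tested. Eng, which encodes endoglin of endothelial cells, rose by 1.02 ± 0.22 (adjusted p = 0.00334), and the decoy receptor gene Bambi fell by 1.11 (adjusted p = 0.0239). The groups did not overlap in either gene, while 5.6% of all genes tested were higher and 5.23% lower with no overlap. Bambi stood at 3.22 CPM in Hyperoxia 1 and at 14.4 to 39.6 CPM in the other 5 hyperoxic libraries, against 41.5 to 59.5 CPM in Normoxia.

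Of the 16 SMAD genes and modulators, all tested, 3 were higher and 0 lower, against 11.8% and 10.8% of all genes, with a median of 0.34. They were the phosphatase gene Ppm1a (0.72 ± 0.13, adjusted p = 0.00118), the pathway inhibitor Pmepa1 (0.91 ± 0.20, adjusted p = 0.00383) and the SMAD repressor Ski (0.42 ± 0.14, adjusted p = 0.0344). Among 22 known target genes of TGF-beta, all tested, 10 were higher and 2 lower, against 11.8% and 10.8% of all genes. Their median log2 fold change was 0.74. In Hyperoxia 1, 5 of these 10 lay above every normoxic library, 3 within the normoxic range and 2 below it. The collagen crosslinking enzyme gene Lox rose by 2.33 ± 0.25 (adjusted p = 1.14e-05), and the protease inhibitor gene Timp1 by 3.73 ± 0.59 (adjusted p = 0.000338). Timp1 stood at 3.75 CPM in Hyperoxia 1, within the normoxic range of 1.11 to 9.19 CPM, and at 19.5 CPM or more in the other 5 hyperoxic libraries. With a normoxic median of 1.87 CPM it passed the filter through its hyperoxic libraries, and it is counted among the 10. Acta2 (0.77) and Ccn1 (1.47) were higher too. The transcription factor gene Snai2 was lower (−1.20 ± 0.20, adjusted p = 0.000516), as was the oxidase gene Nox4 (−0.50), which is named here because it is the other target that fell. Many of these targets also answer to other pathways. On the limma fit of log values 6 target genes were higher and 2 lower, against 8.78% and 13.8% of all genes, with a median of 0.53 against −0.16 over all genes. Without Hyperoxia 1, 14 were higher and 2 lower, against 15.2% and 13.3% of all genes. The plot of the pathway lists shows all tested genes.

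**Figure D4:**
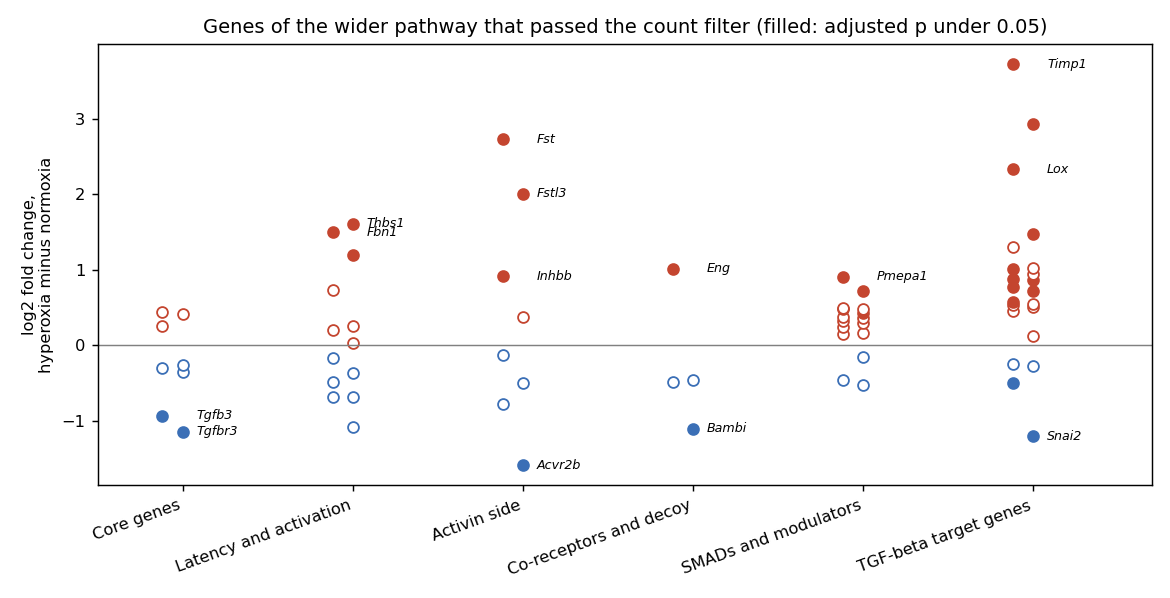
Log2 fold change (Hyperoxia minus Normoxia, all 13 libraries) of every tested gene in the core set and 5 wider lists, red above and blue below 0, filled where the adjusted p is under 0.05. The target genes hold 10 filled points above 0 and 2 below, the core genes 0 above and 2 below. Among all genes tested 11.8% were higher and 10.8% lower.

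The genes with profiles most like those of the 2 called core genes were found over the 13 libraries, by the root mean square difference of log2 CPM after centring each gene on its normoxic mean. For Tgfb3 they were Dusp22 (0.265), Lcp1 (0.284) and Atxn2l (0.286). For Tgfbr3 they were Serinc5 (0.302), Aldh1a7 (0.321) and Epas1 (0.325). Without Hyperoxia 1 the Tgfbr3 neighbours were 3 others, Il17rd (0.218), Zfp740 (0.241) and Oaz2 (0.252), whereas for Tgfb3 Dusp22 and Atxn2l stayed among the nearest 3 and Sirpa took the place of Lcp1.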

How the data were processed

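Lung RNA of 7 normoxic and 6 hyperoxic mouse samples was sequenced by Quant-seq, 1 library a sample. The authors deposited whole-number counts per gene symbol, made with kallisto in the BioJupies pipeline. The submitters' processing notes name mm10 and limma 3.54.2. The authors also deposited the same values as log10 of CPM plus 1, which were recomputed from the counts to within 4.4e-16. Strand use in counting is not given in the sources used here, and 0 columns were left unmapped. Libraries of a group differed by more than sampling noise in all 36 pairs.

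Groups came from the sample labels. The main test was edgeR's quasi-likelihood F test (version 4.0.16, R 4.3.3) on counts scaled by TMM. The function filterByExpr kept 12496 genes, with Benjamini-Hochberg adjustment over all of them and a threshold of 0.05. Standard errors were derived from the fold change and the F statistic. The filter left out Gdf15 and Inhba, so the planned fit was replaced for both by a two-sided exact permutation test of mean log2 CPM (prior count 2), and their pooled counts were compared with an exact binomial interval. Intervals and the floor of 3 counts cover counting error only. Gene lists were described by counts and medians, without a set test. The fits were tested on simulated counts.

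The alternatives were DESeq2 1.42.0, limma-voom and limma 3.58.1 on the deposited log10 values, library size alone, other filters, a block for the replicate number, the letter set, and each library left out. DESeq2 without a filter, the lists under other scalings and without Hyperoxia 1, the difference between letter sets and the use of the exact test as the main one for Gdf15 and Inhba were chosen after seeing the data. The 10 genes and all lists were chosen with earlier results of these data known. The text names all 10 genes, the called genes of each list in order of p (at most 6, or 4 for the p53 and ATF4 lists), and the 3 genes nearest in profile to each called core gene, among genes averaging 3 or more in log2 CPM. A gene that this rule selects is not reported here. Sesn1, Nox4, Eda2r and some genes described in Hyperoxia 1 were named after their values were seen. Coordinates are from a GRCm38 annotation matched by symbol.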

Additional observations from a re-analysis of the deposited data

Results flagged for a closer look

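Within each group, the lowest and highest library were compared with their nearest neighbour for 3 library measures and the 10 genes, in 26 groups of values, of which chance alone marks about 1 in 20. In 4 of them the gap was a larger share of the group's range than Dixon's 95% critical value (0.625 for 6 libraries, 0.568 for 7).

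Tgfbr3 in Hyperoxia 1 had a log2 CPM of 2.59, and its gap to the next hyperoxic library was 0.845 of the range. Tgfbr2 in the same library had a log2 CPM of 5.60, with a gap of 0.784 of the range. The mean correlation of Hyperoxia 1 with the other libraries, 0.779, was also set apart from the rest of its group, with a gap of 0.763 of the range. Of the library totals, that of Normoxia 5, 1607111 counts, was the lowest, with a gap of 0.612 of the range. The low Tgfbr3 and Tgfbr2 values go with the low Gdf15 and Fst values of Hyperoxia 1 given above, and with its lowest sums of airway and endothelial markers (184 and 683 CPM). Most of the endothelial sum is Pecam1, with a normoxic mean of 2773 CPM and 392 CPM in Hyperoxia 1. Gpihbp1, Ednrb, Plvap and Cldn5 also lay below every normoxic library there, while Cdh5 (264 CPM) and the endothelial gene Eng (945 CPM) lay above every one. The part of the marker sums in the gene values was not tested.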

How the results depend on the processing

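The values of the 10 genes kept their sign in every refit and left-out library, while the plain difference in mean log2 CPM of Tgfbr2 within B to M was −0.22. Over all genes, 1120 were called in the libraries B to M alone. The count of core genes called higher was 1 without a filter (7.34% of all genes tested there) and 3 in the libraries O to S alone (11%), and 0 to 3 with 1 library left out (each count above 0 includes Gdf15, which the filter, where one was used, kept through its hyperoxic libraries). The count called lower was 1 without a filter (6.04% of all genes), with at least 10 counts in every library (13.6%) and in B to M alone (3.47%), 0 in O to S alone (10.3%), and 1 to 2 with 1 library left out. The causes were not tested.

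For Tgfb3 the log2 fold change was −0.90 without a filter and −0.024 in O to S alone, neither called, and −1.16 to −0.76 with 1 library left out. Tgfbr3 was −1.49 in B to M alone and −0.61 in O to S alone, neither called, and −1.23 to −0.94 with 1 library left out. Tgfbr2 was 0.83 and Skil 0.50 in O to S alone, both called, and 0.15 and 0.10 in B to M alone, neither called, with ranges of 0.31 to 0.63 and 0.35 to 0.58 with 1 library left out. Tgfbr1, at −0.28 in the exact permutation test, had an unadjusted p of 0.0163 there and was called in no fit. Inhba was not called without a filter, at 1.97 in edgeR and 2.10 in DESeq2, and its difference was 0.73 to 1.20 with 1 library left out. The difference of Gdf15 in the exact test was at least 4.37 with 1 library left out.

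The pathway lists were recounted under 4 other scalings or tests, chosen after seeing the data. The latency list had 1 gene lower under DESeq2, limma-voom and limma on log values and 2 with library size alone, and 1 lower without Hyperoxia 1. Of all genes 12.4%, 12%, 13.8%, 12.6% and 13.3% were lower in these 5 fits, in that order. The activin side had 2 higher and 0 lower under limma-voom, where Acvr2b was not called, and the co-receptors had 2 lower under limma on log values and 2 without Hyperoxia 1. SMADs and modulators had 2 higher under limma on log values and with library size alone, and 4 under DESeq2. The ATF4 and CHOP genes had 8 higher under limma-voom and limma on log values, and the p53 targets 9 under limma on log values and with library size alone. The medians of the latency list and the activin side fell as low as −0.08 and −0.14 and so changed sign. The TGF-beta targets had 6 higher under limma on log values. The median of all genes moved from −0.030 to −0.16 under limma on log values and to −0.10 with library size alone, where 38.8% and 42.7% of calls were higher, against 52.3%.

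The replicate numbers did not pair the samples: the deviations of same-numbered libraries correlated above 0.1 in 1 of 6 pairs. With the number as a block, 1291 genes were called in all, 0 core genes were lower (4.76% of all genes), and Tgfb3 (−1.11, adjusted p = 0.106) and Tgfbr3 (−1.21, adjusted p = 0.0911) were not called. The depth limits Inhba and Gdf15 in Normoxia, where values lie at or under the floor of 0.656 to 1.84 CPM.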
